A study of Caenorhabditis elegans with 8 samples.

Results

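Ribosome occupancy was followed for 10 cuticle collagen genes of Caenorhabditis elegans whose mutants have an altered body shape or a blistered cuticle and which are not among the collagens of the annular furrows: dpy-4 (Y41E3.2), dpy-5 (F27C1.8), dpy-13 (F30B5.1), dpy-17 (F54D8.1), sqt-1 (B0491.2), sqt-2 (C01B12.1), sqt-3 (F23H12.4), rol-6 (T01B7.7), lon-3 (ZK836.1) and bli-2 (F59E12.12). They were chosen by name, and all 10 were found among the 20505 coding sequences (CDS) of the table. The values are RPKM of ribosome-protected fragments, a read number corrected for feature length and sequencing depth, from whole worms of the wild-type strain N2 hatched from egg preparations and grown on NA22 bacteria. There were 4 young adult libraries, 1 for each combination of monosome isolation (sucrose gradient or gel filtration column) and library preparation (an in-house protocol of the submitters or the ARTseq kit). Another 4 libraries came from the fourth larval stage (L4), each with fragments cut from a different gel window (25 to 30, 28 to 30, 28 to 35 or 26 to 34 nucleotides, against about 28 to 30 in young adults), and are named by their numbers 5 to 8 because the labels do not say which number had which window. They belong to a separate experiment, and their isolation and preparation are not given. Stage differences therefore cannot be told apart from differences between the experiments, which may include isolation, preparation and gel window. All 4 young adult titles share a number after the strain name, which may stand for a common specimen. Nothing says that the L4 libraries came from separate cultures. The p-values therefore measure a spread between libraries that may be technical.

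The cuticle of C. elegans is an extracellular coat that the epidermis secretes anew at each molt, and collagens are its main structural proteins. Each chain carries Gly-X-Y repeats that wind into a triple helix, and is hydroxylated in the endoplasmic reticulum, trimmed by proteases and cross-linked outside the cell. Mutations of single collagen genes give worms that are short and fat (dumpy, dpy), squat (sqt), twisted about their long axis so that they roll (rol), long (lon) or covered with fluid-filled blisters (bli). Collagen genes are known to be expressed in waves within each molting cycle.

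L4 library 8 went against its label, and the stage tests of the members are therefore given with and without it. Over 13592 CDS its Pearson r of log2(RPKM + 1) with the young adult libraries was 0.963 to 0.975 and with L4 libraries 5 to 7 it was 0.774 to 0.785, as a description across CDS that share each library's depth. The 6 yolk protein genes summed to between 17410.2 and 18200.0 RPKM in young adults, to 16984.0 in library 8 and to between 40.5 and 47.6 in libraries 5 to 7. The adult collagen col-19 stood at 2857 ± 353 RPKM in young adults (SD, n = 4 libraries), 2549 in library 8 and 49.4 in libraries 5 to 7. The other adult collagen of the marker list, col-7, did not go with col-19. It was low throughout, at 0.987 ± 0.861 RPKM in young adults, 4.16 in library 8 and 3.00 in libraries 5 to 7. In the same order, 5 markers of the molting epidermis (mlt-10, mlt-11, noah-1, noah-2 and qua-1) summed to between 11.6 and 12.4, to 16.7 and to between 1819.9 and 2107 RPKM. Library totals recovered from the RPKM steps ran from 18018744 to 38132794 reads in young adults and were 26078844, 21814060, 4999364 and 3684924 in L4 libraries 5 to 8.

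In L4 libraries 5 to 7 most of these collagens were among the most occupied CDS of the worm, and in young adults the same genes were low. For 9 of the 10 members, every one of libraries 5 to 7 lay more than 100 times above the highest young adult library, which held for 228 CDS or 1.69% of the 13494 compared; 51 of these 228 were collagens. The exception was dpy-17, whose stages overlapped. Libraries 5 to 7 all above young adults, by any amount, was seen for 45.1% of CDS. Together the members took 2.14% to 2.24% of the reads in the table in L4 libraries 5 to 7, 0.00275% to 0.00453% in young adults and 0.0111% in library 8. RPKM of fragments does not separate mRNA abundance from translation, and in whole worms fewer cells of a type and less RNA per cell cannot be told apart.

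**Figure D1:**
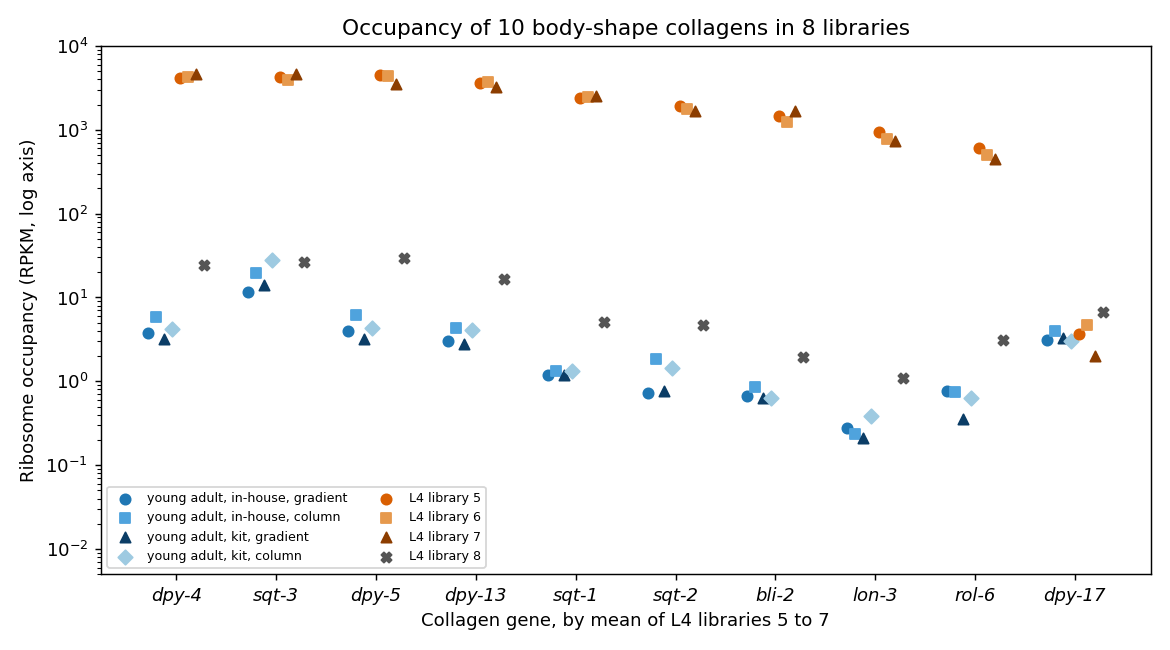
Ribosome occupancy in RPKM (log axis) of the 10 collagens, ordered by their mean in L4 libraries 5 to 7; each point is 1 library, young adults in blues, L4 libraries 5 to 7 in oranges and L4 library 8 as grey crosses. For 9 genes the orange points lie more than 100 times above every blue point. For these genes library 8 lies nearer the blue points than the orange points, and above all blue points except for sqt-3. For dpy-17 all 8 points lie between 2.02 and 6.74 RPKM.

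The dumpy genes dpy-4, dpy-5 and dpy-13 encode collagens whose loss shortens the worm, and DPY-5 and DPY-13 are known from the cuticle between the furrows. The occupancy of dpy-4 was 3.77, 5.85, 3.15 and 4.20 RPKM in the young adult libraries (in the order in-house gradient, in-house column, kit gradient and kit column, used throughout) and 4151, 4222, 4673 and 24.5 RPKM in L4 libraries 5 to 8. That of dpy-5 was 3.97, 6.26, 3.18 and 4.27 RPKM in young adults and 4548, 4335, 3546 and 29.5 in L4. That of dpy-13 was 2.99, 4.27, 2.77 and 4.09 RPKM in young adults and 3653, 3713, 3242 and 16.8 in L4. All 3 were therefore high in libraries 5 to 7 and low elsewhere, with library 8 above the young adults. The mean of libraries 5 to 7 was 1024 times the young adult mean for dpy-4, 937 times for dpy-5 and 1002 times for dpy-13.

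The levels of dpy-4 and dpy-5 also stayed close to each other while both changed by 3 orders of magnitude. The ratio of their RPKM, dpy-4 over dpy-5, lay between 0.934 and 0.992 in the young adult libraries. It was 0.913, 0.974, 1.32 and 0.830 in L4 libraries 5 to 8. The ratio of dpy-5 to dpy-13 ran from 1.05 to 1.47 in young adults and from 1.09 to 1.25 in L4 libraries 5 to 7, and was 1.76 in library 8, where it rests on 96 and 58 reads.

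The gene dpy-17 is also known by its dumpy mutants and from C. elegans genetics as a partner of sqt-3, and it did not share the L4 level of the other members. Its occupancy was 3.14, 3.93, 3.33 and 3.01 RPKM in young adults and 3.70, 4.72, 2.02 and 6.74 in L4 libraries 5 to 8. The groups overlapped with and without library 8, and the L4 values spread more than the young adult ones. The lowest value rests on 11 reads, with an exact 95% Poisson interval of 1.01 to 3.62 RPKM, and the highest on 27 reads, with an interval of 4.44 to 9.81 (all such intervals cover counting error only). The RPKM of sqt-3 was 3.66 to 9.33 times that of dpy-17 in young adults, 831 to 2291 times in L4 libraries 5 to 7 and 3.88 times in library 8.

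The squat and roller genes sqt-1 and rol-6 encode collagens that act together, since the ROL-6 phenotype depends on SQT-1, and a dominant rol-6 allele is a standard transformation marker in worms. The occupancy of sqt-1 was 1.20, 1.33, 1.18 and 1.33 RPKM in young adults and 2402, 2460.3, 2563 and 5.14 in L4. That of rol-6 was 0.764, 0.749, 0.351 and 0.636 RPKM in young adults and 599, 495, 446 and 3.11 in L4. For both genes every L4 library, library 8 included, lay above all young adult libraries. Libraries 5 to 7 all lay above young adults for 45.1% of CDS. The mean of libraries 5 to 7 was 1968 times the young adult mean for sqt-1 and 821 times for rol-6. The 2 genes were not occupied equally: the RPKM of sqt-1 was 4.01, 4.97 and 5.75 times that of rol-6 in L4 libraries 5 to 7, 1.57 to 3.36 times in young adults and 1.65 times in library 8. The young adult values of rol-6 rest on 12 to 26 reads a library.

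The squat gene sqt-2 had 0.732, 1.82, 0.765 and 1.44 RPKM in young adults and 1945, 1761, 1660.3 and 4.69 in L4. Its mean in libraries 5 to 7 was 1503 times the young adult mean. The squat gene sqt-3 encodes a collagen needed from the embryo onward, whose trimming depends on the protease DPY-31. It had 11.5, 19.4, 14.2 and 28.1 RPKM in young adults and 4267, 3926, 4638 and 26.1 in L4. It was the most occupied member in young adults, and the only one for which library 8 fell inside the young adult range. Its mean in libraries 5 to 7 was 234 times the young adult mean, the lowest such ratio among the members other than dpy-17. The RPKM of dpy-4 was 0.150 to 0.328 times that of sqt-3 in young adults, 0.973 to 1.08 times in libraries 5 to 7 and 0.936 times in library 8.

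The gene lon-3 encodes a collagen that limits body length, since worms without it are long, and bli-2 a collagen of the struts that join the layers of the adult cuticle. The occupancy of lon-3 was 0.276, 0.235, 0.209 and 0.387 RPKM in young adults, from 6 to 9 reads a library, and 939, 781, 744 and 1.08 in L4. That of bli-2 was 0.670, 0.854, 0.626 and 0.633 RPKM in young adults, from 11 to 23 reads, and 1455, 1248, 1666 and 1.97 in L4. These were the members with the largest ratios of means between the stages, 2969 for lon-3 and 2093 for bli-2 (mean of libraries 5 to 7 over the young adult mean). The lowest of libraries 5 to 7 was still 1922 times the highest young adult library for lon-3, 1807 times for sqt-1 and 1461 times for bli-2, so that by this measure sqt-1 came before bli-2.

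Stage was tested with limma on log2(RPKM + 1) across all CDS, two-sided, with Benjamini-Hochberg adjustment over all of them. Without library 8 (4 young adult against 3 L4 libraries), 9 of 10 members were higher in L4 and dpy-17 did not pass, where 46.6% of the 13494 CDS tested were higher in L4 and 22.7% lower. Of these members, rol-6, lon-3 and bli-2 were below 1 RPKM in every young adult library. They met the filter of 1 RPKM in 2 libraries only through L4, where they were high. With no filter the same 9 were called, where 6896 of 19619 CDS (35.15%) were higher in L4 and 3303 lower. The largest difference was that of sqt-1 (L4 minus young adult 10.10, SE 0.11, adjusted p = 1.26e-11) and the smallest among the 9 was that of sqt-3 (7.86, SE 0.25, adjusted p = 1.32e-09). For dpy-17 it was -0.0021 (SE 0.20, adjusted p = 0.993). With median centring it was -0.40 and not called (adjusted p = 0.102), but with quantile normalization it was called lower in L4 (-0.57, adjusted p = 0.0261). Over all CDS that normalization gave 4138 higher and 4788 lower, against 6293 and 3059 as deposited. The median over the members was 9.61, against 0.34 over all CDS, and these log2 values understate the change of genes near 1 RPKM or below. With all 8 libraries as labelled the same 9 members passed (27.6% of 13592 CDS were higher in L4 and 11.1% lower), with differences of 6.04 (SE 1.55) for sqt-3 to 7.94 (SE 1.82) for sqt-1 and adjusted p-values from 0.0153 to 0.0242. For dpy-17 that fit gave 0.21 (SE 0.28, adjusted p = 0.562).

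The calls with library 8 in were close to the threshold. Leaving out 1 library at a time, limma called 6 members higher in L4 without the in-house gradient library, 1 without in-house column, 2 without kit gradient, 0 without kit column, 0 without L4 library 5, 0 without L4 library 6, 3 without L4 library 7 and 9 without L4 library 8. In each of these fits 9 members had an unadjusted p under 0.05. Calls fell over the whole table in the same fits. Of all CDS, 27.6% were higher in L4 with 8 libraries, 2.28% without L4 library 5 (the lowest share), 10.1% without the in-house gradient library (the highest share other than that without library 8) and 46.6% without library 8. Once library 8 was set aside, 9 members were called whichever of the other 7 libraries was left out.

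**Figure D2:**
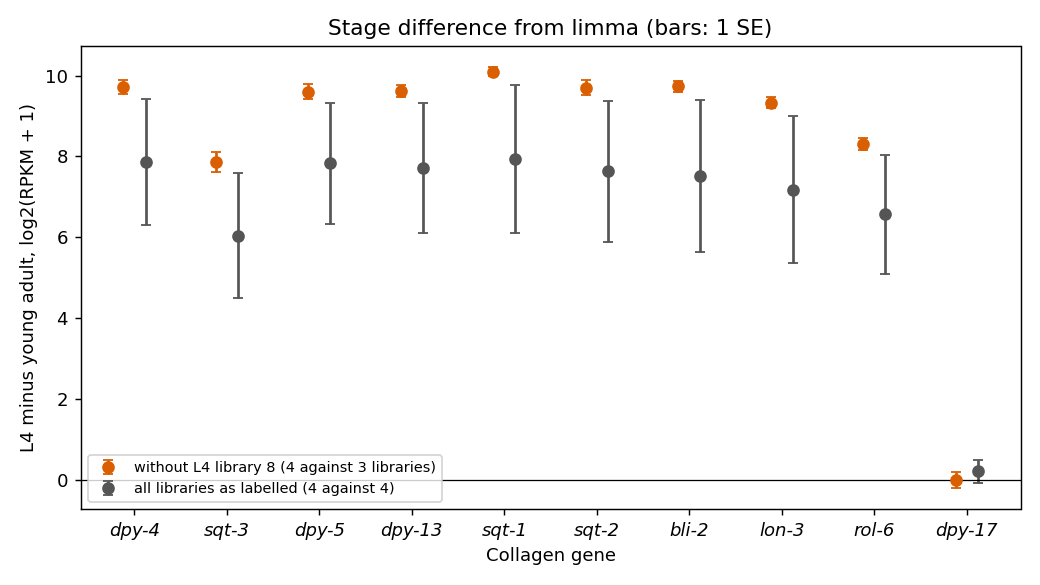
Difference between L4 and young adult libraries on the log2(RPKM + 1) scale for each gene, from limma, with bars of 1 SE; orange points are the fit without L4 library 8 and grey points the fit with all 8 libraries. The 9 members other than dpy-17 lie between 7.86 and 10.10 without library 8 and between 6.04 and 7.94 with it, where the bars are wider; dpy-17 lies at -0.0021 and 0.21.

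Among the members the order of the levels was steep in L4. In libraries 5 to 7 dpy-4 (4348 ± 283 RPKM, SD, n = 3 libraries), sqt-3 (4277 ± 356), dpy-5 (4143 ± 528) and dpy-13 (3536 ± 256) came first, and each had a range that overlapped that of its neighbour in the order. Below them sqt-1 (2475 ± 81.5) and sqt-2 (1789 ± 144) were separated from the gene above by non-overlapping ranges, sqt-2 and bli-2 (1456 ± 209) overlapped, and lon-3 (822 ± 103), rol-6 (513 ± 78.1) and dpy-17 (3.48 ± 1.36) each lay apart. In young adults sqt-3 came first (18.3 ± 7.31 RPKM, SD, n = 4 libraries) with no overlap, followed by dpy-5 (4.42 ± 1.31), dpy-4 (4.24 ± 1.15), dpy-13 (3.53 ± 0.758) and dpy-17 (3.35 ± 0.407), which overlapped from one to the next. After a gap came sqt-1 (1.26 ± 0.0824), sqt-2 (1.19 ± 0.533), bli-2 (0.696 ± 0.107), rol-6 (0.625 ± 0.192) and lon-3 (0.277 ± 0.0787), again with overlapping neighbours.

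Against all CDS, dpy-4 ranked 18 to 21 of 20505 in libraries 5 to 7 and 7325 to 9015 in young adults. Of the lowest 2 members other than dpy-17, lon-3 ranked 237 to 280 and rol-6 342 to 439 in libraries 5 to 7. Within the 177 numbered and named cuticle collagens of the table, dpy-4, sqt-3 and dpy-5 had the highest means in libraries 5 to 7, followed by col-138 and col-73, while dpy-17 ranked 126. The share of all reads taken by these 177 collagens differed much less between the stages than the share of the members. Collagens took 7.24% to 7.90% of reads in L4 libraries 5 to 7, 4.20% to 6.52% in young adults and 5.11% in library 8. Of the collagen reads, the 10 members held 28.5%, 29.6% and 27.5% in libraries 5, 6 and 7, between 0.0593% and 0.0805% in young adults and 0.218% in library 8.

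The 3 L4 libraries with the larval profile differed by more than counting error for most members, without a common direction. Library 7 had lower values than library 5 for dpy-5 (0.780 times), rol-6 (0.745), lon-3 (0.793), sqt-2 (0.854) and dpy-13 (0.888). It had higher values for bli-2 (1.15 times), dpy-4 (1.13), sqt-3 (1.09) and sqt-1 (1.07). Library 6 stood at 0.826 to 1.02 times library 5 over these 9 members, with rol-6 the lowest and sqt-1 the highest. Among the 1384 CDS with at least 100 RPKM in both libraries 5 and 7, the SD of the log2 ratio was 0.42, and the 9 members lay between -0.43 and 0.20. For libraries 5 and 6 the SD over 1484 CDS was 0.16, and the members lay between -0.28 and 0.03. Each gel window had 1 library, so these differences have no replicate check.

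**Figure D3:**
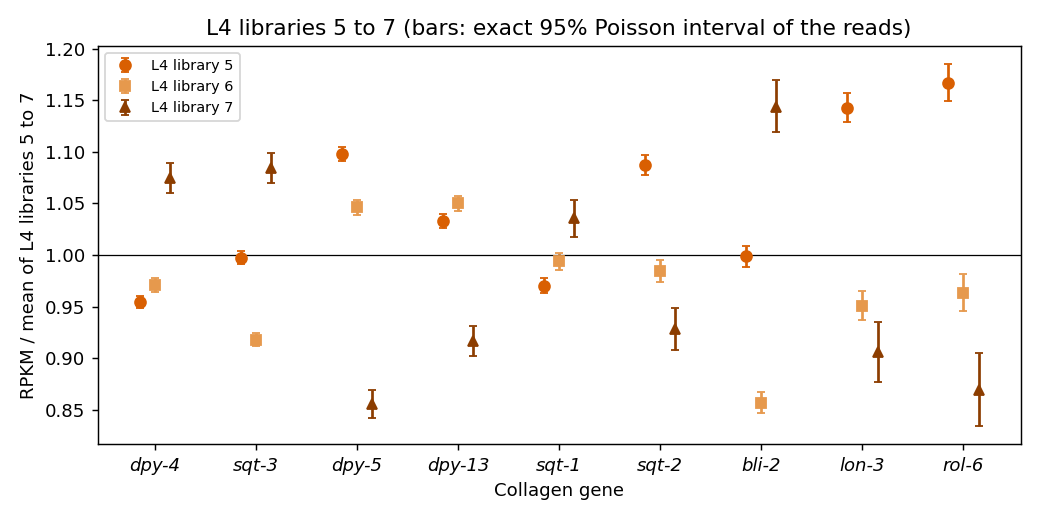
RPKM of L4 libraries 5, 6 and 7 divided by their mean, for the 9 members other than dpy-17; bars are exact 95% Poisson intervals of the reads, which cover counting error only. Library 7 is the lowest for dpy-5, dpy-13, sqt-2, lon-3 and rol-6 and the highest for dpy-4, sqt-3, sqt-1 and bli-2.

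In library 8 the members other than dpy-17 lay far below libraries 5 to 7, and all members but sqt-3 stood above every young adult library. The value of library 8 exceeded all 4 young adult libraries for 9 of 10 members, against 36.5% of 13592 CDS, and it was over 1.5 times the highest of them for the same 9, against 10.9% of CDS. It was 6.67 times the young adult mean for dpy-5, 5.77 for dpy-4, 4.98 for rol-6, 4.76 for dpy-13, 4.09 for sqt-1, 3.94 for sqt-2, 3.91 for lon-3, 2.83 for bli-2, 2.01 for dpy-17 and 1.43 for sqt-3. Relative to the mean of libraries 5 to 7, library 8 held between 0.132% (lon-3) and 0.712% (dpy-5) of the level for the 9 members other than dpy-17. The values rest on 4 reads for lon-3 (1.08 RPKM, interval 0.295 to 2.77) up to 96 for dpy-5 (29.5 RPKM, interval 23.9 to 36.0). For lon-3 and for bli-2 (7 reads, interval 0.792 to 4.06) the interval reached below the highest young adult library (0.387 and 0.854 RPKM). The furrow collagens, as a comparison, had a summed occupancy of 15.8 RPKM in library 8, 3.65 to 5.22 in young adults and 2220.1 to 2682 in libraries 5 to 7.

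**Figure D4:**
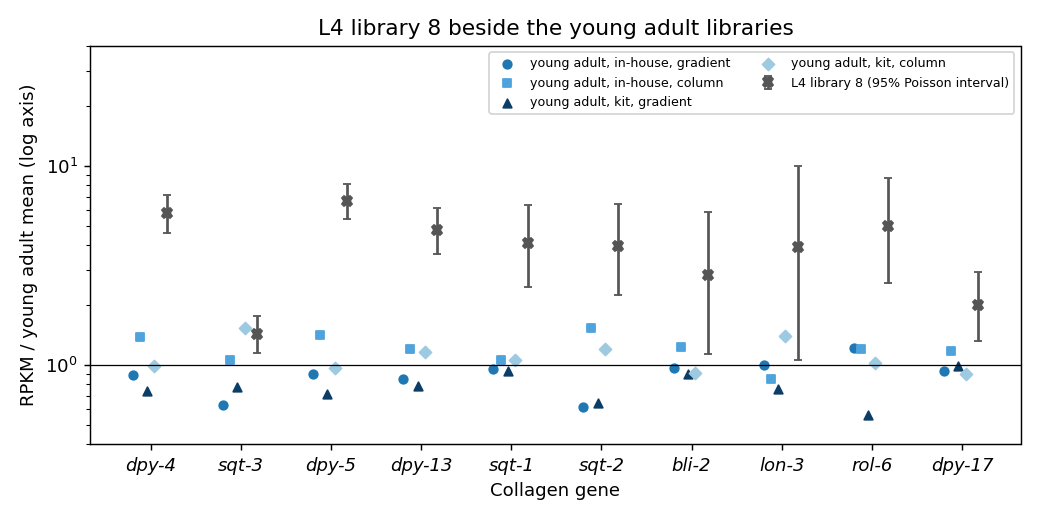
RPKM of L4 library 8 (grey crosses, with exact 95% Poisson intervals) and of the 4 young adult libraries (blue points) divided by the young adult mean, on a log axis. Library 8 lies between 1.43 times (sqt-3) and 6.67 times (dpy-5) that mean, and above every young adult library except for sqt-3. The intervals of lon-3 and bli-2 also reach below the highest young adult library.

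Within young adults, isolation of monosomes was compared to see whether the simpler column can stand in for the gradient. Of the 10 members 7 had at least 1 RPKM in at least 2 of these 4 libraries; lon-3, rol-6 and bli-2 did not. The squat gene sqt-3 was higher on the column, at 19.4 against 11.5 RPKM in the in-house libraries and 28.1 against 14.2 in the kit libraries (column minus gradient 0.82 on the log2 scale, SE 0.08, limma adjusted p = 0.00355). So were sqt-2 (0.59, SE 0.14, adjusted p = 0.0238), dpy-5 (0.44, SE 0.10, adjusted p = 0.0226), dpy-4 (0.42, SE 0.10, adjusted p = 0.0250) and dpy-13 (0.42, SE 0.09, adjusted p = 0.0229), each with the same sign within both preparations. Only its column libraries brought sqt-2 to 1 RPKM, so it met the filter through the group where it was higher. With no filter limma still called sqt-2 (adjusted p = 0.0268). The other tested members were at 0.09 (sqt-1, adjusted p = 0.591) and 0.07 (dpy-17, adjusted p = 0.681). Over all 11569 CDS tested 19.8% were higher on the column and 19.2% lower. Of the 85 numbered col genes tested, 47 were higher and 2 lower, with a median of 0.33, against 0.42 for the 7 tested members and 0.02 for all CDS. With no filter on low values 3 of the members were called, and the calls of dpy-4 (adjusted p = 0.0552) and dpy-13 (adjusted p = 0.0574) were lost. Calls fell over the whole table in that fit, where 1904 of 19136 CDS (9.95%) were higher on the column. The libraries held 22 to 506 reads for these 5 genes, and the fit had 1 residual degree of freedom per CDS.

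The kit and the in-house preparation gave differences in both directions. For sqt-3 the kit was higher (kit minus in-house 0.40, SE 0.08, adjusted p = 0.0149) and for dpy-5 lower (-0.36, SE 0.10, adjusted p = 0.0435). For dpy-4 it was -0.30 (SE 0.10, adjusted p = 0.0693). The remaining 4 tested members lay between -0.12 (dpy-17) and -0.0070 (sqt-1). Over all CDS 25.9% were higher in the kit and 10.0% lower, with a median of 0.10. That split was 2992 higher and 1160 lower as deposited, 1795 and 1875 with quantile normalization and 1663 and 2012 with median centring (median -0.017). Without an abundance trend neither sqt-3 (adjusted p = 0.0527) nor dpy-5 (adjusted p = 0.0574) was called. With median centring dpy-4 passed too (-0.41, adjusted p = 0.0306).

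**Figure D5:**
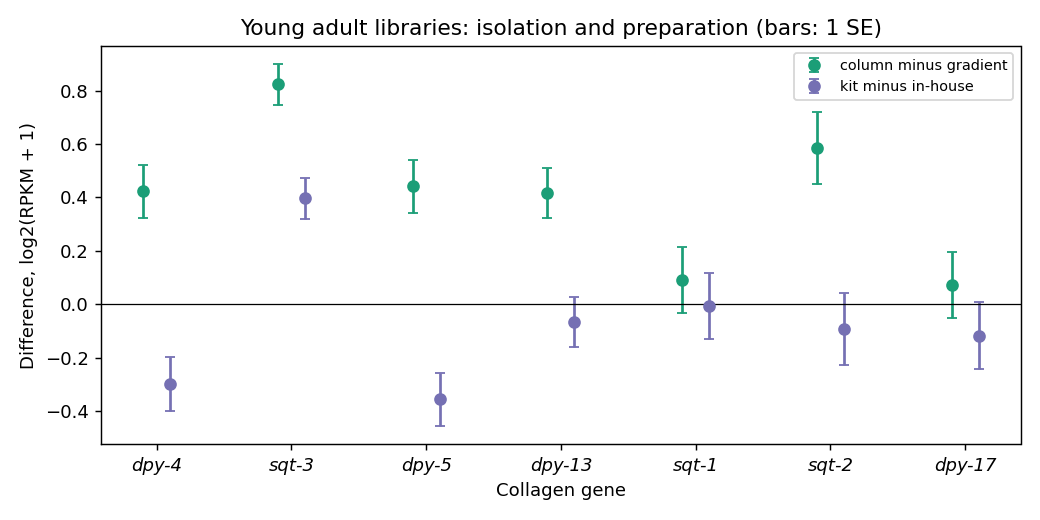
Differences on the log2(RPKM + 1) scale within the 4 young adult libraries for the 7 members that passed the filter, with bars of 1 SE from limma; green points are column minus gradient and purple points kit minus in-house. The isolation difference is largest for sqt-3 (0.82) and near 0 for sqt-1 and dpy-17; the preparation difference is 0.40 for sqt-3 and -0.36 for dpy-5.

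Other genes of the cuticle were taken from lists, with counts from the fits without library 8 and, in brackets, with it. These counts stand beside 46.6% of all CDS higher and 22.7% lower without library 8 (median 0.34), and 27.6% and 11.1% with it (median 0.26). The 6 annular furrow collagens, which form the circular furrows, were all higher in L4 (6 with library 8), with a median difference of 7.82 and dpy-3 going from 0.977 ± 0.275 RPKM in young adults to 602 in libraries 5 to 7. The other named collagens bli-1, bli-6, rol-1 and rol-8 were all higher (4), with bli-6 going from 12.1 ± 1.23 to 1457 RPKM. Of the 134 numbered col genes tested 105 were higher and 25 lower (102 and 23), with a median of 2.79. The median of the 10 members, 9.61, lay above that of each of these lists, and the same holds for the 8-library fit (7.57 against 6.06, 6.99 and 2.30); the lists were not tested against each other.

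Genes that process collagens had a smaller median difference. Of the 16 tested enzymes and folding helpers, 14 were higher in L4 and 1 lower (8 and 0 with library 8), with a median of 1.92 (1.44). The prolyl 4-hydroxylase subunits dpy-18 (19.6 ± 4.57 RPKM in young adults and 255 in libraries 5 to 7) and phy-2 (20.3 ± 2.70 and 213) were higher, as was their partner pdi-2, a protein disulfide isomerase (697 ± 102 and 4761). The thioredoxin-like dpy-11 was at 149 ± 12.6 and 1024 RPKM, and the protease dpy-31 at 22.4 ± 2.70 and 62.9. Also among the most occupied of the list, pdi-1 moved little (608 ± 102 and 833 RPKM, difference 0.46, limma adjusted p = 0.0310). With library 8 pdi-1 was not called (0.35, adjusted p = 0.155). The gene fkb-5 stood at 51.6 ± 5.51 and 573 RPKM (difference 3.45), but was not called with library 8 (2.25, adjusted p = 0.104). The enzyme that was lower was phy-3 (5.55 ± 1.31 and 2.28 RPKM).

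Regulators of body size and of the epidermis also stood far below the members in their differences. In the DBL-1 pathway, a TGF-beta signal that sets body size and is known to act on lon-3, 7 of 11 tested genes were higher in L4 and 1 lower (5 and 0 with library 8), with a median of 0.65 (0.58), against the 46.6% higher, 22.7% lower and median of 0.34 over all CDS; the lower one was lon-1 (55.8 ± 13.5 RPKM in young adults and 36.2 in libraries 5 to 7). Of 9 epidermal transcription regulators 7 were higher (4), with a median of 2.11 (1.53), among them grh-1 (1.46 ± 0.414 and 32.1 RPKM), nhr-23, a nuclear receptor of the molting cycle (2.14 ± 0.544 and 25.3), and blmp-1 (2.91 ± 0.563 and 23.5). The epidermal GATA factor elt-3 stood at 22.3 ± 6.69 and 16.3 RPKM (difference -0.38, adjusted p = 0.136; with library 8 -0.24, adjusted p = 0.436), and lin-26, which marks epidermal fate, at 8.33 ± 1.46 and 29.6. All 10 molting and apical matrix genes were higher (10), with a median of 6.64 (5.09). Markers of other tissues moved with stage as well. Yolk genes were lower for 6 of 6 (6), oocyte and germ line genes for 5 of 6 (5), and muscle genes higher for 3 of 3 (2), with summed muscle markers at 690 to 1042 RPKM in young adults and 1931 to 1948 in libraries 5 to 7. Intestinal markers had a median of 0.48 without library 8, where limma called 3 of 3 higher, and of 0.39 with it, where limma called 0 of 3 (1 had an unadjusted p under 0.05, and voom called 1). The part of these tissues in the members' values was not tested.

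The CDS outside the members with the pattern most like each member were found by the root mean square (RMS) difference of log2(RPKM + 1) over the 8 libraries, each CDS centred on its own mean, over 13592 CDS. The added 1 RPKM shrinks differences of genes near or below 1 RPKM, so nearness depends in part on level. For example, sqt-3 went from 18.3 RPKM in young adults to 4277 in libraries 5 to 7, and dpy-10, given below as near it, from 0.779 to 426. The values of rol-6, lon-3 and bli-2 rest on 6 to 26 reads in each young adult library and 4 to 12 in library 8. For dpy-4 and dpy-13 the nearest non-member was col-138 (RMS difference 0.157 and 0.217) and for dpy-5 it was col-38 (0.115), and col-138 and col-38 were the 2 nearest non-members of all 3 dumpy genes. For rol-6 the nearest was the furrow collagen dpy-3 (0.165) and for sqt-3 the furrow collagen dpy-10 (0.251). For both lon-3 (0.299) and bli-2 (0.374) it was the collagen gene bli-1, which went from 0.393 ± 0.112 RPKM in young adults to 706 in libraries 5 to 7 and stood at 0.850 in library 8. The nearest to sqt-2 was rol-8 (0.309) and to sqt-1 was dbd-2 (0.487), at 11.3 RPKM in young adults and 7336 in libraries 5 to 7. For dpy-17 the nearest were dnj-26 (0.114), gst-9 (0.130) and Y74C10AR.2 (0.139), none of them a collagen by name. For 5 of the 10 members another member was closer than any CDS outside them. These were dpy-13 (dpy-4 at 0.168), sqt-1 and bli-2 (each other's closest, 0.252), lon-3 (bli-2 at 0.258) and sqt-2 (dpy-13 at 0.225). The closest member to dpy-5 was dpy-4 (0.177), and sqt-3 and rol-6 were closest to each other among the members (0.458).

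The protein-coding genes on either side of each member were taken from the gene order of the RefSeq assembly WBcel235. Of these 20 neighbours 17 were tested. Without library 8, 10 were higher in L4 and 3 lower, with a median difference of 0.52, beside the 46.6% higher and 22.7% lower over all CDS. With library 8, 5 were higher and 1 lower (median 0.35), beside 27.6% and 11.1%. The neighbours with a difference above 3 without library 8, chosen after their values were seen, were F23H12.5 next to sqt-3, at 0.293 RPKM in young adults and 79.5 in libraries 5 to 7 (difference 5.96, or 4.69 with library 8), and the collagen col-34 next to dpy-13, at 7.35 and 75.8 RPKM (3.19, or 2.71 with library 8). Next to dpy-5, F27C1.2 was lower in L4 (60.5 and 36.6 RPKM), and so it was with library 8 (-0.62, adjusted p = 0.0411). Next to dpy-17, sax-2 was lower (10.8 and 2.79) without library 8, but not called with it (-1.18, adjusted p = 0.0524). Both neighbours of bli-2, zyg-1 and F59E12.1, differed by -0.12 and -0.11 on the log2 scale without library 8 and by -0.050 and -0.016 with it, and did not pass in either fit.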

How the data were processed

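Ribosome-protected fragments of 8 libraries were used as the RPKM deposited by the authors. Bowtie2 2.2.4, STAR 2.4 and bcl2fastq 1.8.4 appear in the submitters' processing notes with no stated role; the genome build and the treatment of reads that map to several places are not given in the sources used here. Library totals, feature lengths (883 to 1087 bases for the members) and whole reads were recovered from the RPKM steps in Python 3.11.15 with pandas 2.3.3 and numpy 2.4.6. Each of the 19649 CDS above 0 in some library gave whole reads to within 0.0001. Sequence names were matched to RefSeq locus tags (20051 of 20505 matched). No sequence was used, so reads shared with similar collagens could not be checked.

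The tests used limma 3.58.1 (R 4.3.3; eBayes allowing for a trend with abundance) on log2(RPKM + 1), called at an adjusted p of 0.05, and kept CDS that reached 1 RPKM in at least 2 of the libraries compared. One model of the young adult libraries held both isolation and preparation, and the fits were tested on simulated data. Named genes were all members, up to 4 of each list, and the 3 CDS outside the members of most like pattern for each. Other list genes named, the ratios between members and the 100-fold and 1.5-fold limits were chosen after values were seen. The members and lists were chosen with earlier results of these data known. Alternatives were pseudocounts of 0.1 and 5, no filter or one at 10 RPKM, quantile normalization, median centring, no trend, voom on the recovered reads, and leaving out each library. The planned sequence features were not analysed here.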

Additional observations from a re-analysis of the deposited data

Results flagged for a closer look

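In the L4 group the value of library 8 stood far below the other 3 libraries, by Dixon's test on RPKM, for 5 of the 10 members: dpy-4 (24.5 RPKM), dpy-13 (16.8), sqt-1 (5.14), sqt-2 (4.69) and sqt-3 (26.1). The gap to the next library was 0.846 to 0.937 of the range of the group, above the critical value of 0.829 for 4 libraries. For dpy-5, rol-6, lon-3 and bli-2 library 8 held 0.132% to 0.712% of the mean of the others, but the spread among libraries 5 to 7 kept the gap under the critical value. The test was run on 20 groups (10 members at 2 stages), no young adult library was picked out, and chance alone picks out about 1 group in 20. The groups share their libraries and all 5 picks were library 8, so they are not independent and point to 1 unusual library.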

How the results depend on the processing

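No paired analysis was possible because the labels number no libraries across the stages. In the fit of all 8 libraries 9 members were higher in L4 under each alternative but voom on the recovered reads, with 7 (lon-3 at adjusted p = 0.0922 and bli-2 at 0.0571), and leaving out 1 library, with 0 to 9 members. Of all CDS, 27.6% were higher in L4 in the main fit, 39.1% with voom and 2.28% to 46.6% when 1 library was left out. In the fit without library 8, 9 members were higher under every alternative run, beside 30.7% to 48.1% of all CDS. The difference of dpy-17 never passed with 8 libraries and changed sign, from 0.21 to -0.26 with quantile normalization, -0.13 with median centring and from -0.0021 to 0.45 when 1 library was left out (lowest without L4 library 8, highest without L4 library 7). Without library 8 it went from -0.0021 to 0.011 with a pseudocount of 5, 0.16 with voom and -0.40 with median centring (limma adjusted p = 0.102). It lay between -0.20 (without L4 library 6) and 0.26 (without L4 library 7) when 1 more library was left out. With quantile normalization 1 member, dpy-17, was called lower in L4 (-0.57, adjusted p = 0.0261). That normalization moved the median of all CDS from 0.34 to -0.07 and the split of calls from 6293 higher and 3059 lower to 4138 and 4788; with 8 libraries the split went from 3757 and 1507 to 2359 and 2721 (2148 and 2955 with median centring). For preparation it went from 2992 and 1160 to 1795 and 1875 (1663 and 2012 with median centring). For isolation, 5 members were higher on the column, but 3 with no filter and 1 of 1 tested with a filter at 10 RPKM. The shares of all CDS in these fits were 19.8%, 9.95% and 30.6%. For preparation, 1 member was higher in the kit, or 0 without an abundance trend (1 at an unadjusted p under 0.05, and 1 called by voom). Of all CDS, 25.9% were higher in the kit, or 17.2% without a trend. The count of members lower in the kit was 1, but 2 with quantile normalization or median centring and 0 with no filter (2 unadjusted), a filter at 10 RPKM (1 member tested) or no trend (2 unadjusted, and 1 by voom). Of all CDS, 1160 of 11569 were lower in the kit, 1036 of 19136 with no filter, 1093 of 6197 with the filter at 10 RPKM and 632 of 11569 with no trend. The cause was not tested. In young adults the 3 members below the filter had 6 to 26 reads a library, which limits what can be seen there.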
